A study of Homo sapiens with 6 samples.

Results

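The genes described here are 33 transcripts that earlier work has named as targets of miR-21. They do not include the metalloproteinase inhibitors, Sprouty proteins, subunits of the CTLH ubiquitin ligase and TGF-β receptors that are also known as its targets. The rule names the 33 genes by symbol and uses none of their values, although the list was chosen with earlier results of these data known. Each gene was followed over every array probe set annotated to it alone. Of the 33 genes, 30 had such probe sets, 94 in all, among 54675 on the array. KRIT1, NTF3 and TP63 had none in the annotation used here and were not analysed here. A filter on dim values kept probe sets with a mean log2 expression of at least 4 over the 6 arrays, which left 58 of the 94 probe sets and 26 of the 33 genes, out of 10848 genes tested. The other 4 genes, SATB1, SOX5, SERPINB5 and RASGRP1, had no probe set above the filter.

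The arrays measured SK-Hep1 cells, an established human line derived from a liver adenocarcinoma. The mock group held 3 arrays of cells taken through the lipid transfection without anti-miR-21, and the anti-miR-21 group held 3 arrays of cells transfected with it at 20 nM. Cells of both groups were plated 24 hours before transfection and collected 16 hours after it. The labels call the replicates biological, and the mock cells received no control oligonucleotide, so an effect of the miR-21 sequence and an effect of any oligonucleotide cannot be told apart. The collection protocol cites an Argonaute immunoprecipitation, whereas the molecule label and the design text give total RNA, and the fraction hybridised is not settled by the sources used here.

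MicroRNAs are short RNAs that guide Argonaute proteins to messenger RNAs. Pairing runs mainly through the seed near the 5′ end of the microRNA, and it lowers translation of the bound messenger and often its abundance. miR-21 is abundant in many tumours, liver cancers included, and an anti-miR is an antisense oligonucleotide that binds the mature microRNA and blocks it. The mature sequences below, from RefSeq annotation of GRCh38.p14, are shown because the anti-miR is directed against miR-21 and because the seed defines which messengers the microRNA can pair with. Capitals mark the seed, bases 2 to 8.

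hsa-miR-21-5p: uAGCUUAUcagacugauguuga

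hsa-miR-590-5p: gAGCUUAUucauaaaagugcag

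Mature miR-21-5p lies at chr17:59841273-59841294 on the plus strand. Among 2370 mature microRNA names in that table, 2 share this seed, the other being miR-590-5p at chr7:74191213-74191234, also on the plus strand. The letters that pair with the seed in a messenger are AUAAGCU. Whether each listed gene holds them in its transcript was not analysed here, and the arrays do not measure either mature microRNA.

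Between 22277 and 22591 probe sets per array reached the filter level, and pairwise correlations over kept probe sets ran from 0.99387 to 0.99828. On the first principal component, with 50.4% of the variance, replicate 1 of each group lay closest to the opposite group (-7.25 for mock and 3.51 for anti-miR-21). The cells carried the mesenchymal markers VIM, CDH2, FN1 and THY1 (means of the best probe set 15.7, 10.2, 13.7 and 10.7). Of the epithelial markers KRT19 and EPCAM were above the filter (14.2 and 7.33) and CDH1 was below it on both probe sets (2.39 and 2.19). Of the hepatocyte markers ALB, APOA1, TTR and CYP3A4 were below the filter on every probe set and SERPINA1 was above it (11.9). HNF4A, also chosen as a hepatocyte marker, had no probe set annotated to it alone and was not assessed. Of the endothelial markers PECAM1, CDH5, KDR, VWF and TIE1 were below the filter and TEK was above it (4.66). Of the leukocyte markers PTPRC and CD3E were below it and CD14 was above it (5.30).

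With anti-miR-21, 2 of the 26 tested genes rose and none fell when each gene was read from its representative, the kept probe set with the highest mean. These were ZNF367 and GATAD2B. A test across all kept probe sets was used (limma, two-sided, Benjamini-Hochberg, threshold 0.05), by which 0.913% of all genes tested rose and 1.22% fell. At an unadjusted p under 0.05, 9 of the 26 were higher and none lower, against 6.84% and 11.3% of all genes. At the level of probe sets, 3 of 58 rose and none fell, against 1.10% and 1.07% of all kept probe sets. Counting a gene when any of its kept probe sets passed added PLEKHA1, giving 3 genes up and none down, where 1.68% of all genes had a probe set that rose and 1.85% one that fell. When the kept probe sets of each gene were averaged before the fit, 4 of 26 rose and none fell, with CDC25A as the addition, against 1.48% and 1.79% of all genes. Leaving out mock replicate 2, or replicate 2 or 3 of the anti-miR-21 group, left no representative past the threshold. In each of these 3 fits 7 listed genes were higher at an unadjusted p under 0.05, against 5.01%, 4.96% and 4.48% of all genes. None was lower in the first 2 of these fits, and 1 was lower without anti-miR-21 replicate 3, where 7.90% of all genes were lower. Leaving out mock replicate 3, or replicate 1 of the anti-miR-21 group, left ZNF367. Both genes passed when mock replicate 1 was left out. With averaged probe sets the count stayed at 3 or 4 with each array left out in turn, and ZNF367, GATAD2B and CDC25A passed each time. ZNF367 has 1 probe set, so averaging left its values unchanged and only the moderation and adjustment differed. Without mock replicate 2 its limma adjusted p was 0.0824 over kept probe sets and 0.0439 over genes, on the same change of 0.785.

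**Figure D1:**
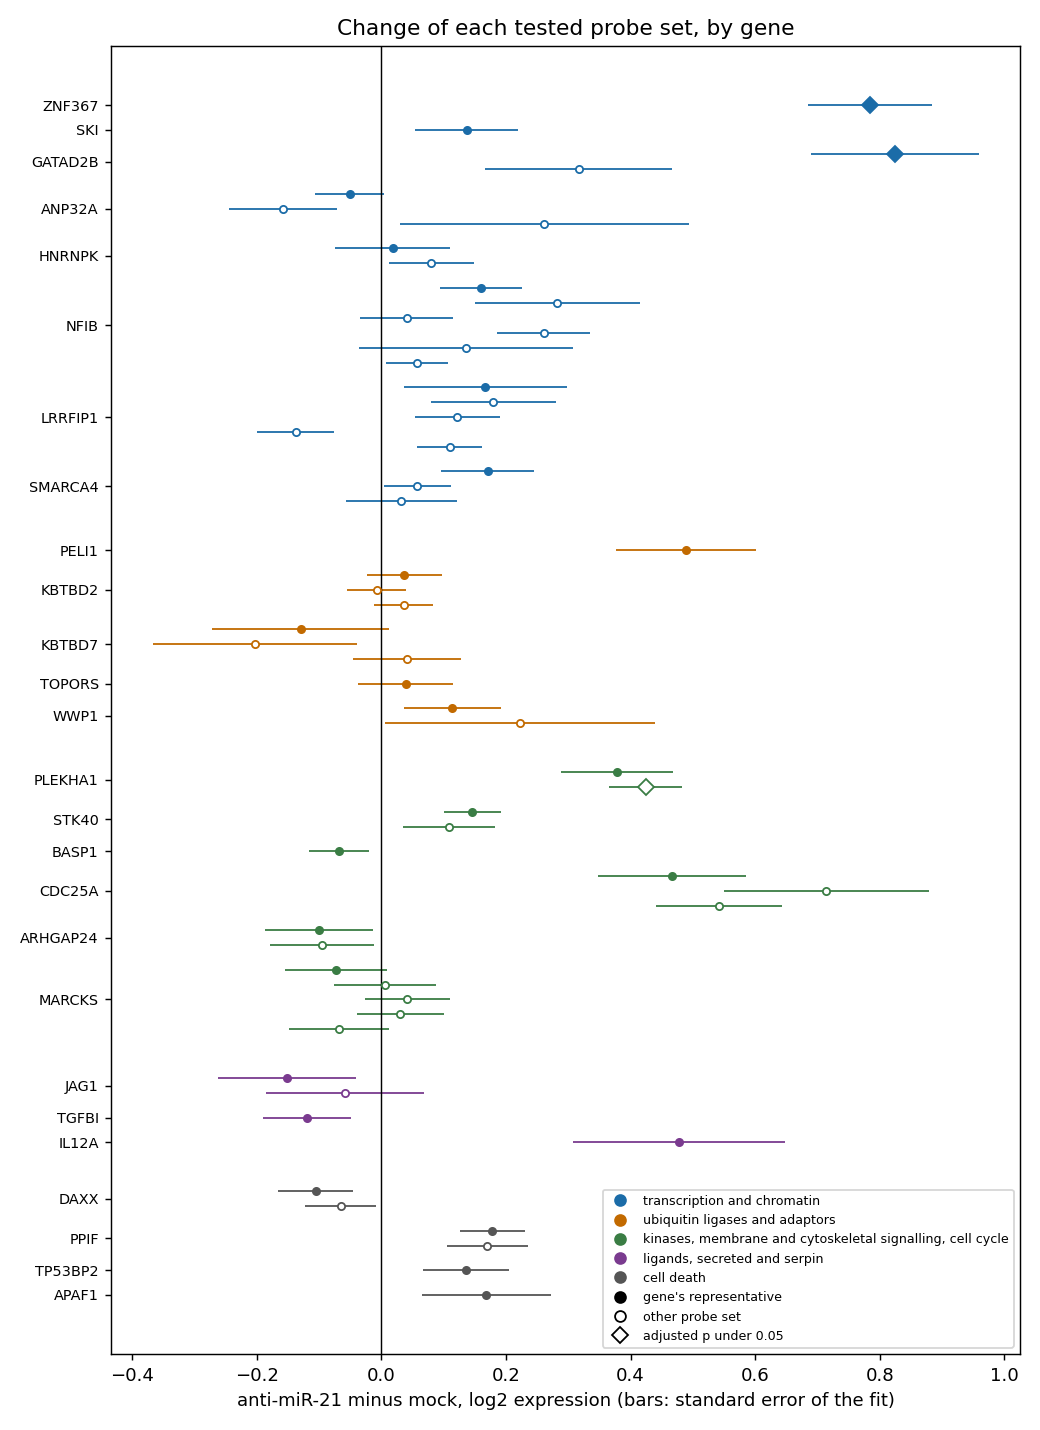
Log2 expression with anti-miR-21 minus mock (x axis) for the 58 kept probe sets of the 26 tested genes, grouped by role, with bars for the standard error of the limma fit over 3 arrays a group. Filled symbols are each gene's representative and diamonds passed at an adjusted p of 0.05. The 3 diamonds belong to ZNF367, GATAD2B and PLEKHA1, and the 3 probe sets of CDC25A lie between 0.47 and 0.71.

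The largest group held transcription and chromatin factors, 11 genes of which 8 were tested, and both genes called by their representative belong to it. ZNF367 encodes a zinc finger transcription factor and has 1 probe set, 229551_x_at. Its log2 level was 10.68, 10.50 and 10.32 in mock replicates 1 to 3 and 11.25, 11.38 and 11.22 in the anti-miR-21 replicates. The groups did not overlap, and the highest mock array lay well below the lowest anti-miR-21 array. ZNF367 rose 1.72-fold (log2 change 0.78 ± 0.10 SE, limma adjusted p = 0.0172). The probe set is of a type (suffix _x) that can cross-hybridise with other transcripts. Its adjusted p passed the threshold under 8 of 12 alternatives, ranging from 0.00953 to 0.0824.

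GATAD2B encodes a subunit of the NuRD complex, which joins nucleosome remodelling to histone deacetylation. Its representative, 238076_at, read 6.85, 7.25 and 7.33 in mock and 8.04, 8.03 and 7.83 with anti-miR-21, without overlap. It rose 1.77-fold (log2 change 0.82 ± 0.14 SE, limma adjusted p = 0.0347), and its adjusted p passed the threshold under 6 of 13 alternatives, ranging from 0.0207 to 0.141. The call was lost without the filter (0.0839), with the replicate number as a block (0.113), and with any array left out other than mock replicate 1 (0.0690 to 0.141). Its other probe set, 225393_at, read 6.39, 5.95 and 5.98 in mock and 6.27, 6.66 and 6.35 with anti-miR-21. There mock replicate 1 lay within the anti-miR-21 range, and the log2 change was 0.32 ± 0.15 SE (limma adjusted p = 0.333). Mock replicate 1 was thus the lowest mock array on the representative and the highest on the other probe set. The difference between the probe sets did not pass a test of its own (0.51 on the log2 scale, adjusted p = 0.481). The same held for each of the 17 listed genes with at least 2 kept probe sets, where 1.42% of all such genes passed that test. Averaged over both, the gene read 6.63 ± 0.03 in mock and 7.20 ± 0.13 with anti-miR-21 (SD, n = 3), a log2 change of 0.57 ± 0.07 SE (limma adjusted p = 0.00948). On the single probe sets the mock SDs were 0.26 and 0.25, and the opposite positions of mock replicate 1 cancel in the average.

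**Figure D2:**
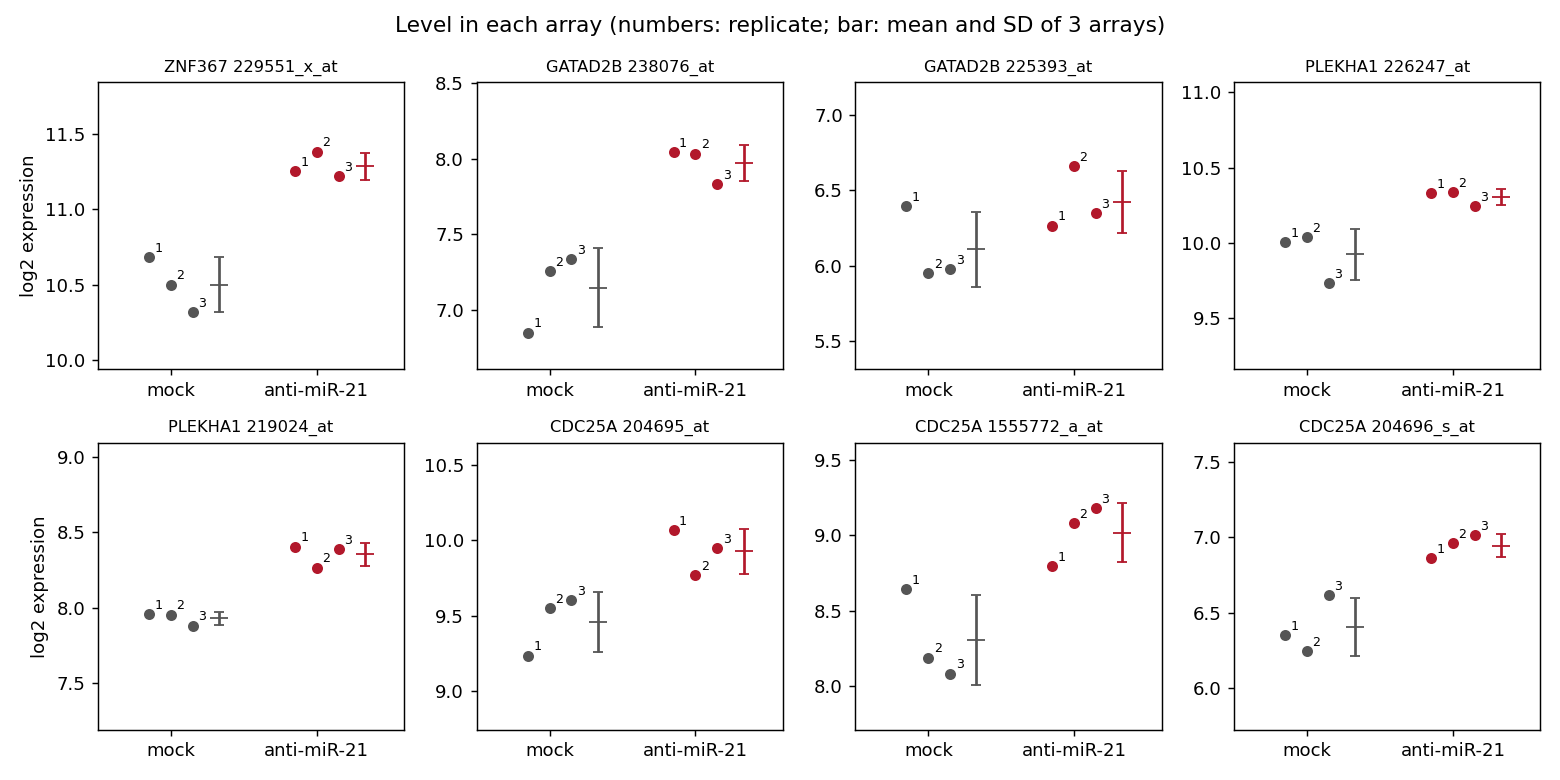
Log2 expression in each array (y axis, all panels spanning the same range of log2 units) for the kept probe sets of ZNF367, GATAD2B, PLEKHA1 and CDC25A, with mock in grey and anti-miR-21 in red. Points are arrays with their replicate number, and bars are the mean and SD of 3 arrays. In 7 of the 8 panels the groups do not overlap, the exception being GATAD2B 225393_at, where mock replicate 1 (6.39) lies above 2 anti-miR-21 arrays.

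The other tested members of this group had smaller changes and none passed. NFIB, a nuclear factor that shapes chromatin access in developing tissues, had 6 kept probe sets of 9, all 6 with positive log2 changes, from 0.04 to 0.28. Its representative read 10.74, 10.64 and 10.52 in mock and 10.79, 10.80 and 10.79 with anti-miR-21, not overlapping but differing by 0.16 ± 0.07 SE on the log2 scale (limma adjusted p = 0.276). SMARCA4, the ATPase of the BAF remodelling complex, had 9 probe sets, of which 3 were kept, with log2 changes of 0.03 to 0.17. The others had means from 2.06 to 3.96, below the filter. The SMARCA4 representative read 6.20, 5.93 and 6.08 in mock and 6.23, 6.22 and 6.26 with anti-miR-21. Mock replicate 1 thus almost reached the anti-miR-21 range (limma adjusted p = 0.300). SKI, a corepressor of SMAD proteins, had 0.14 ± 0.08 SE on the 1 kept of its 3 probe sets (limma adjusted p = 0.441).

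LRRFIP1, a nucleic-acid-binding repressor of TNF transcription, had 9 probe sets, of which 5 were kept. Of the kept ones 4 had positive log2 changes (0.11 to 0.18) and 1 a negative change (-0.14). On 1 of these, 201861_s_at, the groups did not overlap, at 10.50, 10.45 and 10.39 in mock and 10.55, 10.59 and 10.52 with anti-miR-21 (limma adjusted p = 0.333). A test of whether its probe sets moved apart did not pass (adjusted p = 0.490). HNRNPK, an RNA-binding protein of splicing and transcription, had a representative change of 0.02 on the log2 scale, with a 95% interval of the fit from -0.20 to 0.24. ANP32A, an acidic nuclear phosphoprotein that inhibits phosphatase 2A, had 3 kept probe sets at -0.05, -0.16 and 0.26, and the last of these ranged widely among arrays, from 10.95 to 11.57 in mock and from 11.05 to 11.83 with anti-miR-21. SATB1, a chromatin organiser prominent in T cells, and SOX5, a transcription factor of cartilage and neural development, had probe set means of at most 2.64 and 2.61, below the filter.

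Among the signalling, cytoskeletal and cell cycle genes, 6 of 8 were tested. None passed by its representative, and 1 had a called probe set. PLEKHA1, an adaptor that binds the PI3-kinase product phosphatidylinositol 3,4-bisphosphate, had 2 kept probe sets with similar log2 changes at different levels. The called one, 219024_at, read 7.95, 7.95 and 7.88 in mock and 8.40, 8.27 and 8.39 with anti-miR-21 and rose 1.34-fold (log2 change 0.42 ± 0.06 SE, limma adjusted p = 0.0217). That call held under 8 of 13 alternatives and was lost with the replicate number as a block (0.111), without mock replicate 2 or 3 (0.0919 and 0.0744) and without anti-miR-21 replicate 2 or 3 (0.0519 and 0.0992). The representative, 226247_at, read 10.01, 10.04 and 9.73 in mock and 10.33, 10.34 and 10.24 with anti-miR-21 (log2 change 0.38 ± 0.09 SE, limma adjusted p = 0.0934). Neither probe set overlapped between groups. Averaged, PLEKHA1 rose 1.32-fold (limma adjusted p = 0.0216), a call lost on leaving out replicate 2 of mock (0.0567) or replicates 2 or 3 of the anti-miR-21 group (0.0826 and 0.0803), and with the replicate number as a block (0.0610).

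CDC25A, a phosphatase that activates cyclin-dependent kinases at entry into S phase, had 3 kept probe sets, each without overlap between groups and none called alone. The representative, 204695_at, read 9.23, 9.55 and 9.60 in mock and 10.06, 9.77 and 9.95 with anti-miR-21 (log2 change 0.47 ± 0.12 SE, limma adjusted p = 0.112). The second, 1555772_a_at, read 8.64, 8.19 and 8.08 in mock and 8.80, 9.08 and 9.18 with anti-miR-21 (0.71 ± 0.16 SE, adjusted p = 0.0888). Mock replicate 1 was the lowest mock array on the first of these and the highest on the second, as for GATAD2B. The third, 204696_s_at, read 6.35, 6.24 and 6.61 in mock and 6.86, 6.96 and 7.01 with anti-miR-21 (0.54 ± 0.10 SE, adjusted p = 0.0525), and it passed with the filter at 6, with median centring and with quantile normalization (0.0340, 0.0489 and 0.0496).

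Averaged over its 3 probe sets, CDC25A read 8.08, 7.99 and 8.10 in mock and 8.57, 8.60 and 8.71 with anti-miR-21. The spread within groups was smaller than on single probe sets, with SDs of 0.06 and 0.07 against a difference of 0.57 ± 0.06 SE on the log2 scale. On the single probe sets the mock SDs were 0.20, 0.30 and 0.19. The opposite positions of mock replicate 1 on 204695_at and 1555772_a_at partly cancel in the average. CDC25A thus rose 1.49-fold by that measure (limma adjusted p = 0.00511), and with each array left out the change stayed between 0.53 and 0.60 (adjusted p 0.0123 to 0.0288).

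STK40, a pseudokinase that serves as an adaptor of the ubiquitin ligase COP1, had 2 kept probe sets that did not overlap between groups. Its representative read 10.62, 10.62 and 10.60 in mock and 10.73, 10.76 and 10.79 with anti-miR-21, a log2 change of 0.15 ± 0.05 SE that did not pass (limma adjusted p = 0.172). The other, 225015_s_at, read 6.11, 6.06 and 6.11 in mock and 6.12, 6.14 and 6.35 with anti-miR-21. There the groups almost touched (log2 change 0.11 ± 0.07 SE, limma adjusted p = 0.489). MARCKS, an actin-binding substrate of protein kinase C, had 5 kept probe sets with log2 changes from -0.07 to 0.04, and its representative's 95% interval ran from -0.27 to 0.12. BASP1, a membrane protein of neurite growth cones, had -0.07 ± 0.05 SE on the 1 kept of its 2 probe sets. ARHGAP24, a GTPase-activating protein for Rac, had -0.10 on both kept probe sets of its 4. RASGRP1, a Ras exchange factor of lymphocytes, had 1 probe set with a mean of 2.39, below the filter.

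None of the 5 ubiquitin ligases and adaptors passed. PELI1, a ligase of Toll-like and interleukin-1 receptor signalling, read 7.56, 7.65 and 7.23 in mock and 7.93, 7.93 and 8.05 with anti-miR-21. The groups did not overlap, and the log2 change of 0.49 ± 0.11 SE did not pass (limma adjusted p = 0.0888). Its other 2 probe sets had means of 2.87 and 2.70, below the filter. WWP1, a HECT-type ligase, had 0.11 and 0.22 on its 2 probe sets (adjusted p = 0.496 and 0.641). TOPORS, a ligase for ubiquitin and SUMO that binds topoisomerase I, had 0.04 ± 0.08 SE. The cullin 3 adaptors KBTBD2 and KBTBD7 each had 3 kept probe sets, with log2 changes from -0.01 to 0.04 and from -0.20 to 0.04.

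All 4 cell death genes were tested and none passed. PPIF, the mitochondrial cyclophilin of the permeability transition pore, had 2 probe sets, neither overlapping between groups. They differed by 0.18 ± 0.05 and 0.17 ± 0.07 SE on the log2 scale (limma adjusted p = 0.146 and 0.245). The representative read 12.55, 12.66 and 12.59 in mock and 12.74, 12.78 and 12.81 with anti-miR-21, so each anti-miR-21 array lay above each mock array by a small margin. APAF1, the scaffold of the apoptosome, and TP53BP2, a cofactor of p53 in apoptosis, had 0.17 ± 0.10 and 0.14 ± 0.07 SE (adjusted p = 0.451 and 0.365), with overlapping arrays. Further probe sets of APAF1 had means of 3.50 and 2.35, below the filter. DAXX, a histone H3.3 chaperone linked to death receptor signalling, had -0.11 and -0.07 on its probe sets (adjusted p = 0.415 and 0.598).

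Among the ligands and secreted proteins, 3 of 5 were tested and none passed. IL12A, the p35 subunit of interleukin 12, lay near the filter and read 4.71, 4.28 and 4.72 in mock and 4.93, 5.36 and 4.85 with anti-miR-21 (log2 change 0.48 ± 0.17 SE, limma adjusted p = 0.215). The groups did not overlap, but the lowest anti-miR-21 array exceeded the highest mock array by less than the SD within either group (0.25 and 0.27). JAG1, a Notch ligand, had 2 kept probe sets at -0.15 and -0.06, and the other 4 had means from 1.89 to 3.29. TGFBI, an extracellular matrix protein, had -0.12 ± 0.07 SE (adjusted p = 0.433). SERPINB5, the serpin maspin, had means of 2.88 and 1.98 on its probe sets, below the filter. For genes below the filter the arrays do not show whether a transcript was absent or too dim to measure.

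Over the 26 tested genes the log2 change of the representative was positive in 18 and negative in 8, and its median was 0.137, whereas over all genes tested 43.3% were positive and the median was -0.018. The arrays of the groups did not overlap in the upward direction for 10 of the 26 genes and in the downward direction for none, where 10.4% and 15.1% of all genes did so. Among kept probe sets, 18 of 58 did not overlap upward and none downward, against 11.4% and 12.6% of all kept probe sets. Changes of the representatives ran from -0.15 for JAG1 to 0.82 for GATAD2B. With each array left out in turn and the same representative kept, 22 of the 26 genes kept the sign of their change, the exceptions being KBTBD2, HNRNPK, TOPORS and MARCKS.

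**Figure D3:**
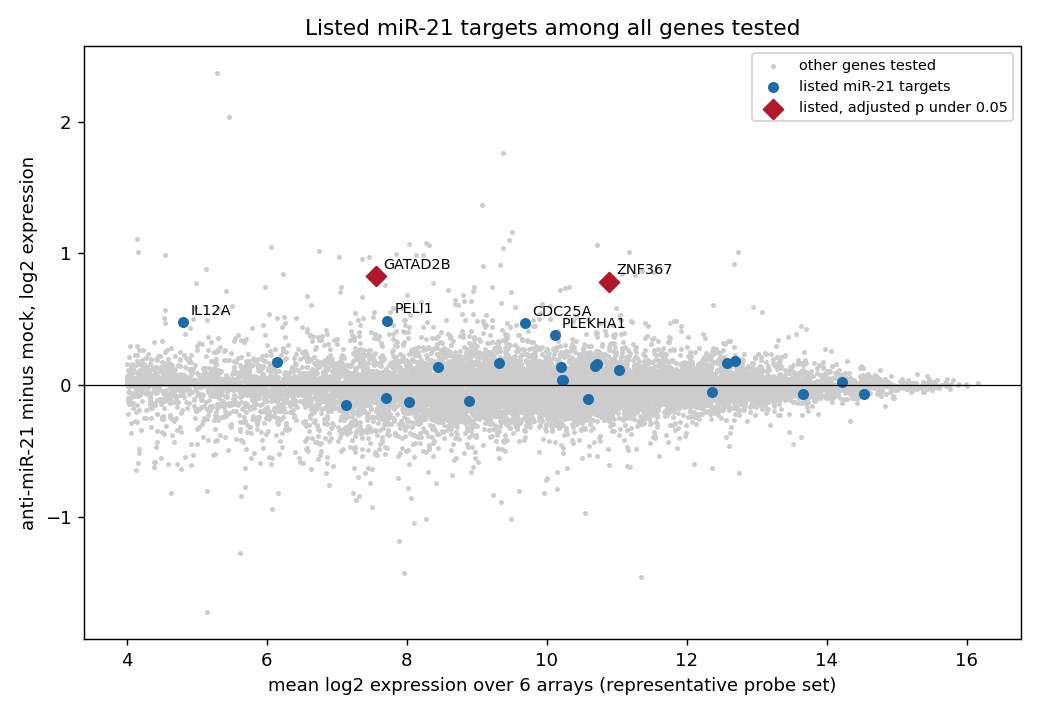
Change with anti-miR-21 (y axis, log2 expression, anti-miR-21 minus mock) against mean log2 expression over 6 arrays (x axis) for the representative probe set of each of 10848 genes, with the 26 tested listed genes in blue and those called in red. The 6 labelled genes have changes from 0.38 to 0.82, and the lowest listed gene is JAG1 at -0.15.

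The median shift was not equal in all arrays. Taking each gene relative to its mean over the 6 arrays, the median over the 26 genes was 0.004, -0.068 and -0.093 in mock replicates 1 to 3 and 0.027, 0.076 and 0.051 in the anti-miR-21 replicates. Mock replicate 1 thus lay close to anti-miR-21 replicate 1. The median change was 0.048 in place of 0.137 once mock replicate 3 was left out. The median over all genes stayed between -0.016 and 0.016 in every array. The 36 dim probe sets of the listed genes, below the filter, had medians of 0.022, -0.002 and -0.048 in mock and -0.039, 0.029 and 0.032 with anti-miR-21, with overlapping ranges in the 2 groups. The part of this array-wide movement of dim values in the changes of genes near the filter, such as IL12A, was not tested. The lowest kept probe set of SMARCA4, with a mean of 4.04, also lay near the filter.

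**Figure D4:**
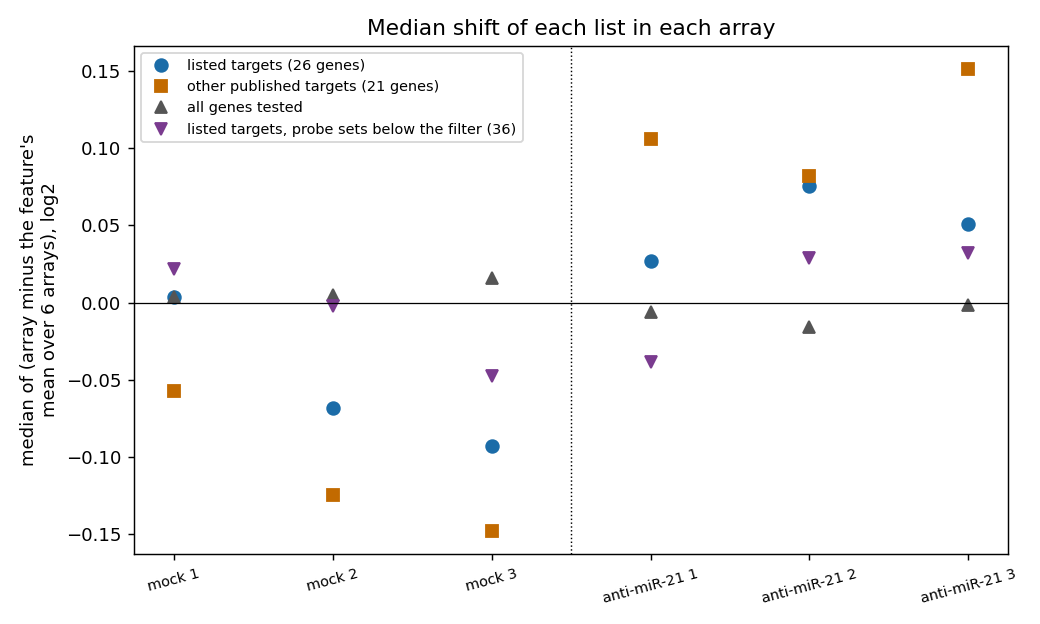
Median over each list (y axis) of an array's log2 value minus the feature's mean over 6 arrays, for each array (x axis). Blue circles, the listed targets, lie between -0.093 and 0.004 in mock and between 0.027 and 0.076 with anti-miR-21, and grey triangles, all genes tested, stay within 0.016 of 0.

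A comparison list of 26 further published miR-21 targets, outside the 33 and also chosen with earlier results known, gave 21 tested genes. Of these 7 rose and none fell by their representative, against 0.913% and 1.22% of all genes. Their median log2 change was 0.246, against -0.018 over all genes, and no test of the difference between the lists was made. IL6R, the interleukin 6 receptor, read 6.41, 6.15 and 6.18 in mock and 7.32, 6.96 and 7.50 with anti-miR-21. It rose 2.02-fold (log2 change 1.01 ± 0.14 SE, limma adjusted p = 0.0231). By their representatives TIMP3, YOD1, RMND5A, GID4, TGFBR2 and TIAM1 rose between 1.21-fold and 1.63-fold. Other kept probe sets of GID4, TGFBR2 and TIAM1 did not pass (limma adjusted p = 0.411, 0.196 and 0.604). Those of YOD1 and RMND5A passed (0.00207 and 0.0376), and of the others of TIMP3 only 201147_s_at did (0.0228). By any kept probe set 8 genes rose and none fell, against 1.68% and 1.85% of all genes. The addition was RECK, 3.11-fold on 205407_at (limma adjusted p = 0.0228), whereas its representative did not pass (0.865). Probe set 205407_at read 4.32, 4.06 and 3.49 in mock and 5.27, 5.69 and 5.82 with anti-miR-21. The mock mean of 3.96 lay below the filter level, so it was kept only through the anti-miR-21 arrays. The other kept probe sets of RECK had log2 changes of 0.02, -0.05 and -0.08. For RECK the test of probe sets moving apart passed (adjusted p = 0.0376), so its probe sets differ. As with the listed genes, calls by the representative were lost with arrays left out. No gene of this list passed by its representative without mock replicate 2 or without replicate 3 of the anti-miR-21 group. In these fits 14 and 16 of all genes rose, against 99 with all arrays. At an unadjusted limma p under 0.05, 12 of the list were higher in both cases, where 5.01% and 4.48% of all genes were. Whether fewer arrays or particular arrays account for the lost calls was not tested.

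The precision of these comparisons is set by 3 arrays a group. Data were simulated with independent noise at limma's moderated variances and with no shift shared by the probe sets of an array. There limma found 83 of 100 probe sets given a 1.5-fold change and 99 of 100 given a 2-fold one. These were among 22408, with 8 false calls in that fit. Real arrays also shift together, so these shares may overstate what could be found here. The changes of most listed genes were smaller than 1.5-fold, so a gene that did not pass is not shown to be unchanged.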

How the data were processed

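The authors deposited log2 expression values, 1 column for each of the 6 arrays, which the submitters' processing notes credit to GCRMA. That method models background by probe sequence, then applies a normalization across arrays and a summary per probe set. The version of GCRMA is not given in the sources used here. Deposited values spanned 0.0443 to 16.2 and were analysed unchanged. GCRMA compresses dim values, so changes near the filter are less certain.

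Gene names came from the supplied platform annotation, with symbols updated by Entrez identifier to RefSeq (GRCh38.p14). Of the 54675 probe sets, 62 were controls, 41091 named a single gene, 1801 named several and 11721 were unnamed here. Kept probe sets (mean of at least 4, 22408) were fitted in limma 3.58.1 (R 4.3.3, lmFit and eBayes, no covariate), with Benjamini-Hochberg adjustment over all kept probe sets. Changes are anti-miR-21 minus mock. To ask whether probe sets of a gene moved apart, each was tested relative to the average of the others, with Simes' method per gene and adjustment over 5285 genes. Both fits were tested on simulated data with independent noise, where the second recovered 96 of 100 shifts of 1 log2 unit with 4 false calls. The labels do not tell how the cultures were separated, so p values reflect only the variation among these arrays, which may be partly technical.

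The genes, role groups, marker lists and comparison list were chosen with earlier results of these data known. Every listed gene is named, and those with a called probe set are given array by array, as are the other genes whose representative did not overlap between groups, a choice made after their values were seen. Alternatives covered the filter, variance moderation, centring, quantile normalization, averaging of probe sets, probe set type, the replicate number as a block and each array left out.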

Additional observations from a re-analysis of the deposited data

How the results depend on the processing

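The number of listed genes that rose by their representative was 2, and it became 1 without the filter, 1 without probe sets of suffix _x or _s, 4 with averaged probe sets and 0 to 2 with each array left out. Without those suffixes only 15 listed genes were tested. ZNF367, whose only probe set has suffix _x, was not among them, and GATAD2B passed (limma adjusted p = 0.0336). The count by any probe set was 3, and 0 to 4 with each array left out. It was not computed with averaged probe sets. The count by averaged probe sets was 4, and 3 to 4 with each array left out, a check chosen after seeing the data. No listed gene fell in any of these limma fits, and none was lower at an unadjusted p under 0.05 except 1 without anti-miR-21 replicate 3. Over all genes 99 rose and 132 fell, against 161 rising with averaged probe sets, and 14 to 91 rising and 24 to 135 falling with each array left out. Of the comparison list 7 rose, 4 without the filter and 0 to 5 with each array left out. The median change of the listed genes was 0.137, 0.077 without the filter (which adds the 4 dim genes) and 0.048 to 0.155 with each array left out.

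The labels do not tell whether replicate numbers pair the samples. Same-numbered arrays had deviations from their group means correlated at -0.361, -0.266 and -0.002, and differently numbered ones at -0.232 to 0.399. Such deviations sum to 0 over the 3 arrays of a group, so these correlations cannot decide whether samples were paired. With the replicate block no listed gene rose by its representative or by any probe set (0 and 0, with 6 higher and none lower at an unadjusted limma p under 0.05, against 5.20% and 8.25% of all genes), 3 rose with averaged probe sets (PLEKHA1 was lost), 0 of the comparison list rose, and over all genes 16 rose and 16 fell.

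Changes that crossed 0 belonged to genes that were not called. ANP32A became 0.018 with averaged probe sets and MARCKS 0.042 without suffixes _x and _s. With an array left out, KBTBD2 ranged from -0.0069 to 0.075, HNRNPK from -0.055 to 0.119, TOPORS from -0.019 to 0.109 and MARCKS from -0.140 to 0.0095. JAG1 read 0.022 without anti-miR-21 replicate 1 because its representative changed to 216268_s_at there, and with 209099_x_at kept it ranged from -0.233 to -0.037. JAG1 was the one listed gene whose representative changed when an array was left out. With each gene's representative kept, a check chosen after seeing the data, the listed genes that rose numbered 0 to 2, none fell and the median change was 0.048 to 0.155 (0.099 without mock replicate 2). The cause of the other differences between settings was not tested. Dim values and 3 arrays a group limit what could be called.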
